A study of Mus musculus with 16 samples.

Results

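Alb, Ttr, Hpx, Fga, Fgb, Fgg, Apoa2, Ahsg, Fabp1 and Tat are 10 genes by which a hepatocyte, the main cell of the liver, is commonly recognised, and whose products are mostly secreted into plasma. They were found by symbol among the 23420 genes listed for each library, and all 10 were present. The mice, all male and of strain C57BL/6, were 4 wild-type animals and 4 animals that carry the label of an adipocyte-specific Trib1 knockout. From each mouse a library of adipocytes, freed from subcutaneous fat with collagenase, was set beside a library of its liver. This makes 4 groups of 4 libraries. A mouse is called by the ending that the titles of its libraries share. Mice wt_1135, wt_1136, wt_1138, ko_1137 and ko_1139 were taken at postnatal day 76, and mice wt_1153, ko_1151 and ko_1152 at day 70.

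The labels name neither the Cre driver nor the deleted part of Trib1, which encodes the pseudokinase tribbles 1. In wild-type adipocyte libraries Trib1 was listed at 615, 788, 1018 and 1070 CPM, which are counts scaled to library size. The knockout-labelled ones had 920, 1062, 1205 and 1134.7 CPM. The groups overlapped, and the log2 difference was 0.28 ± 0.18 (edgeR adjusted p = 0.241; SE, 4 mice a group). Liver Trib1 lay between 49.0 and 91.5 CPM, with a log2 difference of 0.12 ± 0.18 (edgeR adjusted p = 0.875). Reads from any exons that remain would enter the total of the gene. Directions below are therefore those of libraries by their label, knockout minus wild-type. The design text speaks of hepatocytes, whereas the protocol describes homogenised liver, and the liver libraries held macrophage markers at a summed 202 to 325 CPM and endothelial markers at 153 to 233 CPM.

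Hepatocytes secrete most proteins of blood plasma and read their genes under a set of liver-enriched transcription factors, among them HNF1, HNF4 and C/EBP family members. Albumin (Alb) keeps water in the vessels and carries fatty acids, transthyretin (Ttr) carries thyroid hormone and retinol-binding protein, and haemopexin (Hpx) binds free haem. The α, β and γ chains of fibrinogen (Fga, Fgb, Fgg) are joined into the clotting protein and rise together in the acute phase response to interleukin 6. Apolipoprotein A-II (Apoa2) belongs to high-density lipoprotein, and fetuin-A (Ahsg) binds calcium phosphate in plasma. Fabp1, the liver fatty acid binding protein, works inside the cell, as does Tat, the tyrosine aminotransferase that starts tyrosine breakdown and is a classical glucocorticoid target. Mature fat cells are not known as a source of most of these proteins, although they do secrete some acute phase proteins such as haptoglobin.

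The fibrinogen genes lie side by side on chromosome 3 of GRCm38, with Fgg at chr3:83007724-83015049 and Fga at chr3:83026076-83033627 on the plus strand and Fgb at chr3:83040141-83049863 on the minus strand. Alb lies at chr5:90460897-90476602, Hpx at chr7:105591613-105600137, Fabp1 at chr6:71199827-71205023, Apoa2 at chr1:171225054-171226379, Ahsg at chr16:22891277-22899449 and Tat at chr8:109990437-109999803, all as protein-coding genes. The RefSeq promoter table (GRCm38.p6) held 9 of the 10 genes. The promoters of the genes on which the results below turn are shown here, as the 250 bases before the RefSeq start in the direction of transcription. Capitals mark 2 motifs on either strand, the HNF1 half-site GTTAAT (read as ATTAAC on the other strand) and the interleukin 6 response element core CTGGGAA. No capitalised match overlaps another.
Alb (chr5:90460620-90460869, plus strand): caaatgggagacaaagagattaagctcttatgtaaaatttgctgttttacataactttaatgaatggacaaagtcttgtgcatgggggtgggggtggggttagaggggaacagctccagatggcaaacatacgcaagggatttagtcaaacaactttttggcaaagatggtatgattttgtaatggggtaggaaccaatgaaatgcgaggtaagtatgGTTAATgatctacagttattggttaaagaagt
Fga (chr3:83025903-83026152, plus strand): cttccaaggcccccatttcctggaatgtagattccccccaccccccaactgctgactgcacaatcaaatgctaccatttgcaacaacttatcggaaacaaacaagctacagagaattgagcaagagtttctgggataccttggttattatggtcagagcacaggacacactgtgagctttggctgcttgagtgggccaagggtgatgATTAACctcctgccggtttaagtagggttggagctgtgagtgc
Fgb (chr3:83049864-83050113, minus strand): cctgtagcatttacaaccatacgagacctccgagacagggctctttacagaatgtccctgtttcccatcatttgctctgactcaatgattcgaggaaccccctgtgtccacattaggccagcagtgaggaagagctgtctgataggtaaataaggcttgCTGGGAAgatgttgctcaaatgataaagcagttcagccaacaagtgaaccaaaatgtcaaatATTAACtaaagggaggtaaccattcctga
Fgg (chr3:83007474-83007723, plus strand): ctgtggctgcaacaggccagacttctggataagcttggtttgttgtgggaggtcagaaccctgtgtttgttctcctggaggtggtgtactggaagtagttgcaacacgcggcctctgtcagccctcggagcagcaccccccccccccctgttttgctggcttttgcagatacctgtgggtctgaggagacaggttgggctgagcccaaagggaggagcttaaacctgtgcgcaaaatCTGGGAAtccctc
Hpx (chr7:105600117-105600366, minus strand): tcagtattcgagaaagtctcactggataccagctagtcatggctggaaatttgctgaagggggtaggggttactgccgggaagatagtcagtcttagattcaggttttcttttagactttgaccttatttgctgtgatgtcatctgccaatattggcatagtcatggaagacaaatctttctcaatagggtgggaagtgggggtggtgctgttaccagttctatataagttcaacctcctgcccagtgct
The HNF1 half-site was found in the windows of Alb, Fga, Fgb and Fabp1, against 6.43% of the 32851 promoters searched, of the same length. CTGGGAA was found in the windows of Fgb and Fgg, and in 9.10% of the promoters searched. Fga, whose adipocyte values are set beside those of Fgb and Fgg below, had the half-site and not CTGGGAA in these letters. Its window did hold CTGGGAT, which differs from CTGGGAA in the last letter only. A looser C/EBP pattern, TTNNGNAA, was present in 36.8% of the promoters searched. It was in the windows of 8 of the 9 genes, all but Fgg, counting the alternative start of Apoa2. The TATA core TATAAA was in 12.4% of promoters and in those of Apoa2 and Fabp1. These matches describe letters in a window and are not measured binding sites.

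Total counts were 28560887 to 53716669 per library, and no same-group pair of libraries agreed within sampling noise (chi-square over its degrees of freedom was 32.3 or more). The replicates were separate mice, and the p-values below rest on the spread between them. Of the adipocyte libraries, that of mouse wt_1153 stood apart: 28 further hepatocyte genes were there at a median of 0.0248% of that mouse's liver level, against 0.00256% to 0.00702% in the other 3 wild-type and 0.00399% to 0.0115% in the knockout-labelled adipocyte libraries. Results that rest on it are given with and without it. Of these 28 genes Cyp7a1, the bile acid enzyme gene, had 0 counts in all 8 adipocyte libraries, and each of the other 27 had counts in at least 1. Trf and Cyp2e1, also among the 28, were abundant there, at 115935 to 241997 and 103004 to 326951 counts per adipocyte library. Summed levels of 12 adipocyte markers were 33615 to 49322 CPM in adipocyte libraries and 230.0 to 281.5 CPM in liver. Fgg shares 115 exon bases with the lincRNA Gm30097 and Ahsg 62 with the antisense RNA Gm30505, both on the opposite strand. Neither RNA is listed in the files, and without the strand setting such reads cannot be told from those of the gene itself.

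In liver the 10 genes together took 11.3% to 14.5% of all counts. Per kilobase of exon, Alb was the most abundant of 21777 genes, at 39860 ± 4587 CPM per kb (SD, n = 8), and Apoa2 came next at 19263 ± 3219. Fabp1 (13446 ± 3341) ranked 4, Ttr (8015 ± 894) 10, Ahsg (6377 ± 515) 12 and Hpx (3020 ± 680) 20. The fibrinogen chains stood close together, with Fgg (2092 ± 532) at rank 29, Fga (1920 ± 541) at 30 and Fgb (1354 ± 338) at 43, and Tat (1188 ± 381) came at 51. Most neighbours in this order overlapped in their range over the 8 livers. The exceptions were Alb and Apoa2, Ttr and Ahsg, and Ahsg and Hpx, whose ranges were apart. Ahsg varied least between livers, with a coefficient of variation of 8.08%, and Tat most, with 32.1%. The lengths join all annotated exons of a gene, 3810 bases for Fgb and 2093 for Fgg. Before division by length Fgb stood above Fgg, at a mean of 5169 against 4226 CPM in wild-type livers. In knockout-labelled livers these means were 5150 against 4531 CPM.

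**Figure D1:**
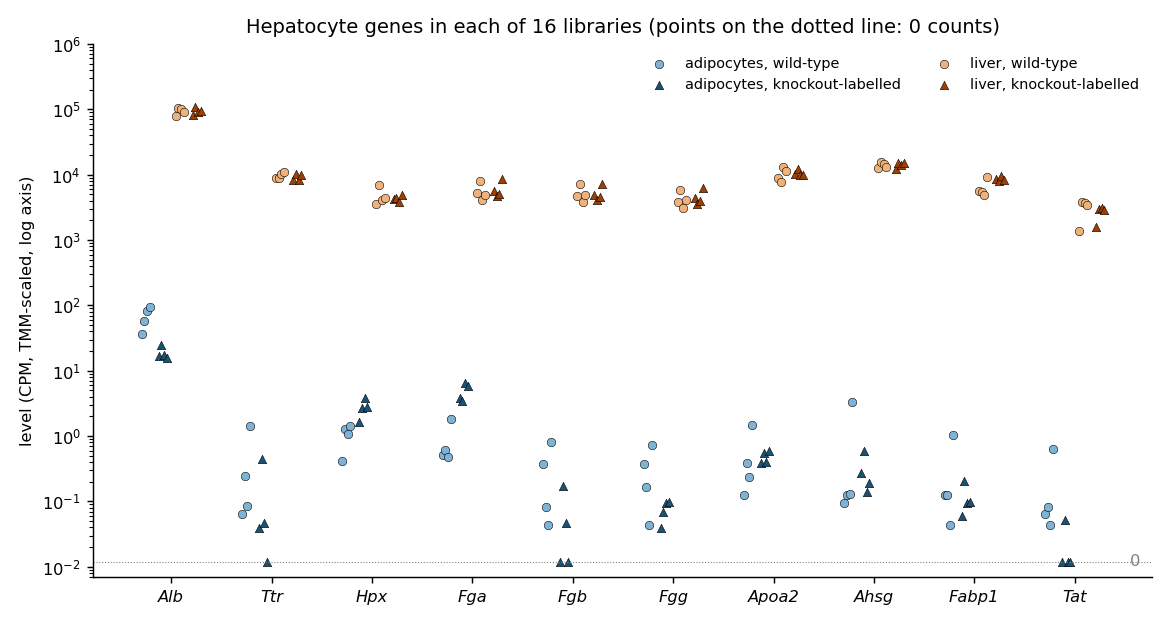
Level of each of the 10 genes in each of the 16 libraries, in CPM on a log axis, with circles for wild-type and triangles for knockout-labelled libraries, blue for adipocytes and orange for liver. Points on the dotted line have 0 counts. Liver libraries lie above 1000 CPM for each gene, whereas adipocyte libraries lie below 100 CPM for Alb and below 10 CPM for the others.

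In adipocytes the same genes took 0.00262% to 0.0131% of all counts. Alb led there as well, at 35.9, 58.1, 83.2 and 93.4 CPM in wild-type libraries and 16.6, 24.8, 17.6 and 15.6 CPM in knockout-labelled ones, which put it at rank 1815 of 21777 per kilobase. Every other gene stayed below 7 CPM in every adipocyte library. In wild-type mice the log2 difference between liver and adipocytes ran from 10.5 ± 0.83 for Alb to 14.4 ± 0.97 for Ttr (SE, n = 4 per group; edgeR adjusted p = 5.84e-07 and 1.44e-07). There 77.6% of all 14366 genes tested were called, 37.2% higher and 40.5% lower in liver, and 73.4% did not overlap. Since these genes passed the filter through liver, their calls were bound to follow. Without mouse wt_1153 the wild-type difference ran from 10.7 for Alb to 16.9 for Ahsg, with Ttr at 16.2. In knockout-labelled mice, where 79.8% of genes were called, 39.3% higher and 40.4% lower in liver, and 75.5% did not overlap, the difference ran from 10.3 ± 0.37 for Fga and 10.7 ± 0.31 for Hpx to 16.3 ± 0.52 for Fgb and 17.1 ± 0.48 for Tat. In such bulk RNA fewer cells that express a gene and less RNA per cell cannot be told apart.

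The order of the genes within the adipocyte libraries was not that of liver. As a percent of the same mouse's liver level, Alb stood at 0.0456%, 0.0559%, 0.0828% and 0.104% in the wild-type mice and at 0.0206%, 0.0228%, 0.0194% and 0.0167% in the knockout-labelled mice. Fga stood at 0.00953%, 0.00781%, 0.0115% and 0.0380% in wild-type and 0.0670%, 0.0728%, 0.131% and 0.0686% in knockout-labelled mice. For Hpx the values were 0.0114%, 0.0189%, 0.0261% and 0.0334% against 0.0388%, 0.0617%, 0.1001% and 0.0567%. For these 3 genes the genotype groups did not overlap, and Fga took over from Alb as the gene nearest to its liver level in every knockout-labelled mouse. The other 7 genes lay below these 3 in each mouse except wt_1135, where Fgg passed Fga, with a median of 0.00111% to 0.00228% in 3 wild-type mice and of 0.000686% to 0.00395% in the knockout-labelled mice. In mouse wt_1153 the same 7 genes lay at 0.0113% (Fabp1) to 0.0251% (Ahsg), close to each other. The 28 further hepatocyte genes of that library had a median of 0.0248%, with quartiles of 0.0167% and 0.0420%. Tat marked the lower end, with 3 adipocyte counts in all 4 knockout-labelled libraries and a mean of 0.000433% of liver. Counts halved, rounded up and then summed gave 0.000999% of liver by library totals (95% exact binomial interval 0.000121% to 0.00361%). Such intervals cover counting error only.

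**Figure D2:**
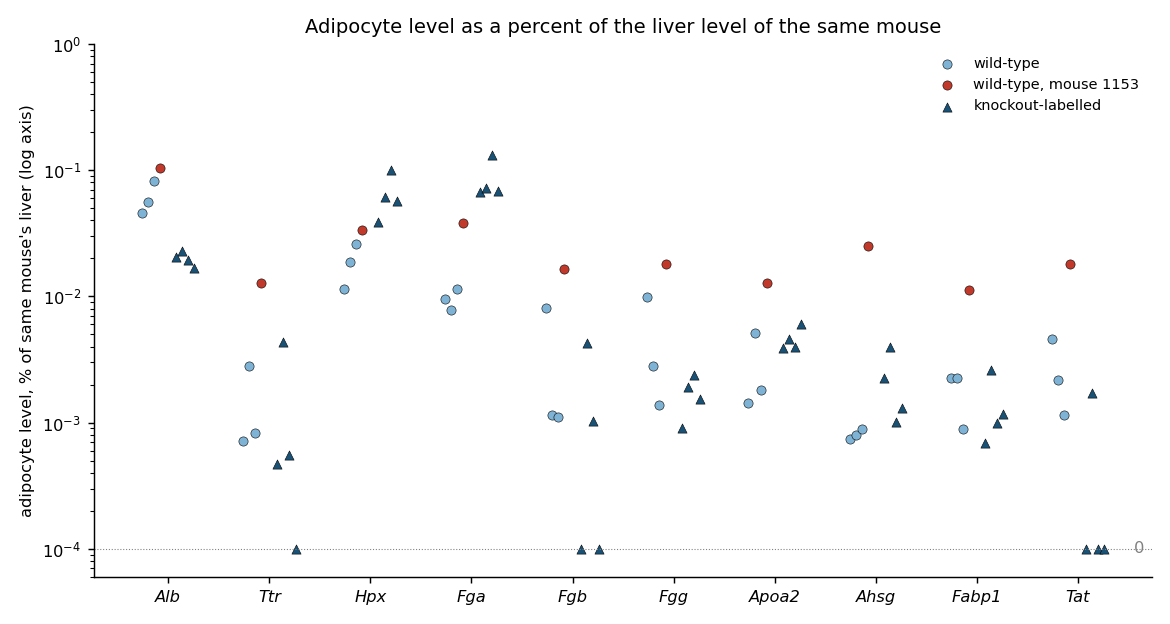
Adipocyte level of each gene as a percent of the liver level of the same mouse, on a log axis, with circles for wild-type mice (red for mouse wt_1153) and triangles for knockout-labelled mice. Points on the dotted line have 0 adipocyte counts. Alb, Hpx and Fga lie above the other 7 genes in each mouse except wt_1135, and mouse wt_1153 is the highest wild-type mouse for each gene.

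In the adipocyte libraries labelled knockout, Alb fell and Fga and Hpx rose. The mean of Alb was 67.7 ± 25.8 CPM in wild-type libraries against 18.7 ± 4.19 CPM in the knockout-labelled ones (SD, n = 4 per group), a log2 change of -1.88 ± 0.28 (SE; edgeR adjusted p = 0.00147). Fga was listed at 0.507, 0.619, 0.473 and 1.86 CPM in wild-type and at 3.78, 3.39, 6.61 and 5.94 CPM in knockout-labelled libraries, from 22 to 92 counts against 192 to 283. The groups did not overlap, and its log2 change was 2.48 ± 0.46 (edgeR adjusted p = 0.00361). Hpx was listed at 0.412, 1.30, 1.07 and 1.45 CPM against 1.63, 2.68, 3.85 and 2.75 CPM, again without overlap, with a log2 change of 1.35 ± 0.39 (edgeR adjusted p = 0.0236). These calls stand against a wide background, since 35.2% of the 13795 genes tested in adipocytes were called, 18% higher and 17.1% lower, and 34.5% did not overlap between the groups. With library totals in place of TMM scaling the median gene moved from a log2 change of -0.011 to -0.205 and the split from 2487 higher and 2362 lower to 1293 and 3899, while Alb, Fga and Hpx kept direction and call. Without mouse wt_1153 the changes were -1.68 for Alb, 3.17 for Fga and 1.54 for Hpx, all still called (edgeR adjusted p = 0.00236, 0.000386 and 0.0229). Hpx lost its call without mouse wt_1138, ko_1139, ko_1151 or ko_1152 (edgeR adjusted p = 0.0517 to 0.0667) and within the mice of 76 days (1.21, edgeR adjusted p = 0.152), where Alb (-1.53) and Fga (2.72) kept theirs. The mice of 70 days included 1 wild-type animal and gave no value of their own.

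**Figure D3:**
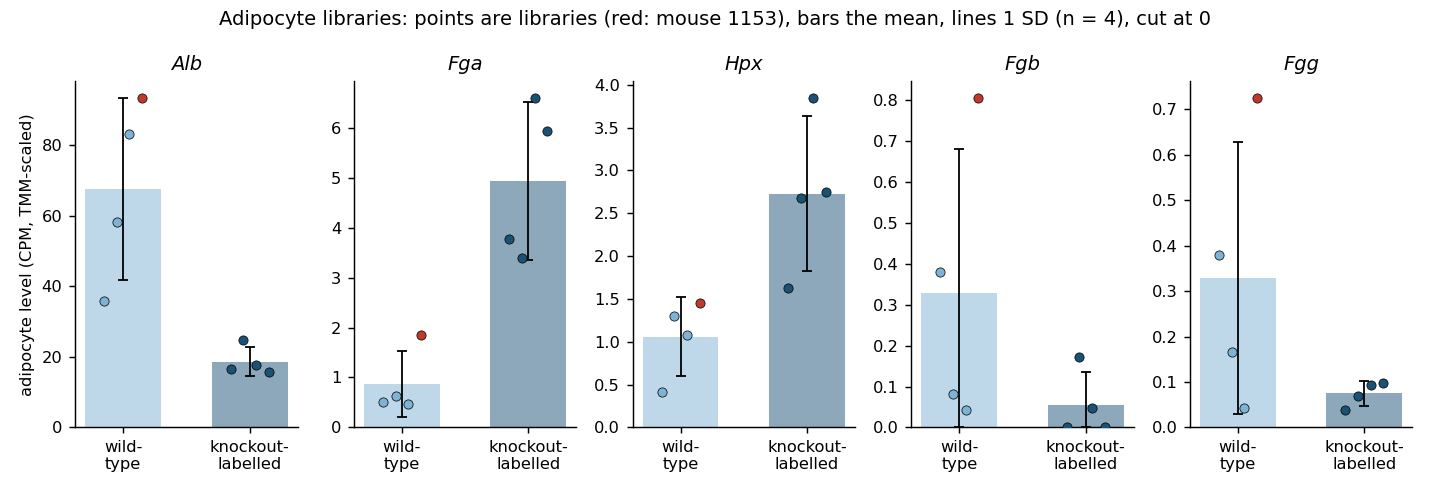
Adipocyte levels of Alb, Fga, Hpx, Fgb and Fgg in CPM on linear axes that start at 0, with points for libraries (red for mouse wt_1153), bars for the mean of 4 libraries and lines for 1 SD, cut at 0. Alb is lower and Fga and Hpx are higher in each knockout-labelled library than in any wild-type one, while Fgb and Fgg overlap between the groups.

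In adipocytes the proportions of the fibrinogen chains varied between libraries. In every liver the 3 chains kept nearly fixed proportions, with Fga at 1.001 to 1.22 and Fgg at 0.810 to 0.889 counts per count of Fgb. In wild-type adipocyte libraries Fga to Fgb counted 32 to 24, 30 to 4, 22 to 2 and 92 to 40, and in the knockout-labelled ones 192 to 0, 196 to 10, 283 to 2 and 244 to 0. In mouse wt_1135 the adipocyte proportion of Fga to Fgb (1.33) was near that of its liver (1.13). Fgg, the third chain, had 24, 8, 2 and 36 counts in wild-type and 2, 4, 4 and 4 in knockout-labelled libraries. Fga was thus apart between the groups, whereas Fgb and Fgg overlapped. Fgb and Fgg did not pass the filter on low counts. In a fit that kept them Fgg was at -2.15 ± 0.77 and Fgb at -2.45 ± 1.10 (edgeR adjusted p = 0.0637 and 0.129), and without mouse wt_1153 at -1.44 and -1.55 (edgeR adjusted p = 0.204 and 0.353). DESeq2, run without that filter, called Fgg lower (-2.18, adjusted p = 0.0357). So did the fit of all 16 libraries (-2.16, edgeR adjusted p = 0.0267). Fgg passed the filter in that fit through its liver counts, and liver spread entered it. A difference in response between the chains was not tested.

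Apoa2 passed the filter in adipocytes and was not called, at 0.127, 0.392, 0.236 and 1.47 CPM in wild-type and 0.394, 0.553, 0.397 and 0.584 CPM in knockout-labelled libraries. Its log2 difference of -0.22 ± 0.66 (edgeR adjusted p = 0.819) turned to 0.93 without mouse wt_1153 (edgeR adjusted p = 0.141). Ttr, Ahsg, Fabp1 and Tat did not pass the filter, and their highest wild-type value was that of mouse wt_1153 in each case. Without that mouse their wild-type libraries held 20 counts of Ttr, 18 of Ahsg, 16 of Fabp1 and 10 of Tat in all, and the 4 knockout-labelled libraries held 30, 62, 23 and 3. In edgeR without the filter Ttr was at -1.65, Ahsg at -1.59 and Fabp1 at -1.52 (adjusted p = 0.247 to 0.320), and without mouse wt_1153 they turned to 0.09, 1.36 and 0.20 (adjusted p = 0.145 to 0.955). Tat had 0 counts in 3 of the 4 knockout-labelled libraries and 3 counts in that of mouse ko_1139. DESeq2 called it lower (-3.86, adjusted p = 0.0300), whereas edgeR without the filter did not (-3.57, adjusted p = 0.0593), nor without mouse wt_1153 (-1.94, adjusted p = 0.279).

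Among the genes around these 10 some rose and some fell in adipocytes. The shares below are to be read beside the 18% called higher and 17.1% called lower over all genes. In the order below, the median log2 changes of the lists were 0.269, 1.11, 0.143, 0.354 and 0.0840, against -0.0110 over all genes. Without mouse wt_1135 or wt_1136, the medians of the further hepatocyte genes and of the clotting genes lay below that of all genes. Of 28 further hepatocyte genes 13 could be tested, of which 4 rose and 1 fell (2 rose without mouse wt_1135, wt_1136, ko_1139, ko_1151 or ko_1152). Apoc3, an inhibitor of lipoprotein lipase, rose from 1.34 ± 0.447 to 4.07 ± 1.23 CPM (log2 change 1.59 ± 0.29, edgeR adjusted p = 0.00365), and vitronectin (Vtn) fell from 4.88 ± 0.542 to 1.82 ± 0.319 CPM. Of 5 tested carriers of plasma, the class of Alb, Ttr and Hpx, 4 rose and 0 fell (3 to 4 rose under the other scalings and without each mouse). Haptoglobin (Hp), which binds free haemoglobin as Hpx binds haem, went from 2354 ± 580 to 6950 ± 242 CPM (log2 change 1.53 ± 0.18, edgeR adjusted p = 0.000464). Of 7 tested clotting and fibrinolysis genes 2 rose and 1 fell, with protein S (Pros1) at a log2 change of 0.38 ± 0.10 and factor X (F10) at -1.46 ± 0.39. Pros1 lost its call with library totals (0.19, edgeR adjusted p = 0.21), and F10 lost it without mouse wt_1135, ko_1139 or ko_1152 (edgeR adjusted p = 0.0513 to 0.0581). Of 9 tested partners of Apoa2 in lipoproteins 4 rose and 2 fell, among them Apoc4 (2.31 ± 0.31) and the phospholipid transfer protein Pltp (-1.38 ± 0.28). Of 7 tested fatty acid binding and uptake genes, the class of Fabp1, 2 rose and 2 fell. Fabp5 rose from 162 ± 21.9 to 430 ± 120 CPM and the fatty acid transport protein Slc27a2 fell from 2.77 ± 1.14 to 0.280 ± 0.105 CPM.

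Tat opens the breakdown of tyrosine, and the enzymes that follow it were measured in the same adipocyte libraries. These 4 enzymes were picked from the list of amino acid enzymes after their values were seen. Hpd, the hydroxyphenylpyruvate dioxygenase that acts next, was listed at 1.49, 1.47, 1.63 and 1.79 CPM in wild-type and 2.34, 5.29, 4.18 and 6.55 CPM in knockout-labelled libraries (log2 change 1.499 ± 0.29, edgeR adjusted p = 0.00462). Hgd, the homogentisate dioxygenase, stayed under 0.6 CPM and also rose (2.12 ± 0.52, edgeR adjusted p = 0.0125). Fah, the fumarylacetoacetate hydrolase that ends the pathway, rose from 98.6, 140, 135 and 145 CPM to 256, 241, 264 and 250 CPM (0.94 ± 0.11, edgeR adjusted p = 0.000501). None of the 3 overlapped between the groups, and they kept their calls under the 3 other scalings and without each mouse in turn. Gstz1, the maleylacetoacetate isomerase between Hgd and Fah, rose by less (0.42 ± 0.13, edgeR adjusted p = 0.0348) and lost its call with library totals (0.23, edgeR adjusted p = 0.102), with upper-quartile scaling and without mouse wt_1135, wt_1138, ko_1139, ko_1151 or ko_1152. In liver none of the 4 was called, with log2 differences from -0.24 to -0.08. Of 11 tested amino acid enzymes 7 rose and 0 fell, led by the mitochondrial aspartate aminotransferase Got2 (1.61 ± 0.10, edgeR adjusted p = 2.16e-05). With library totals 6 rose and 1 fell, and without each mouse 5 to 7 rose.

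**Figure D4:**
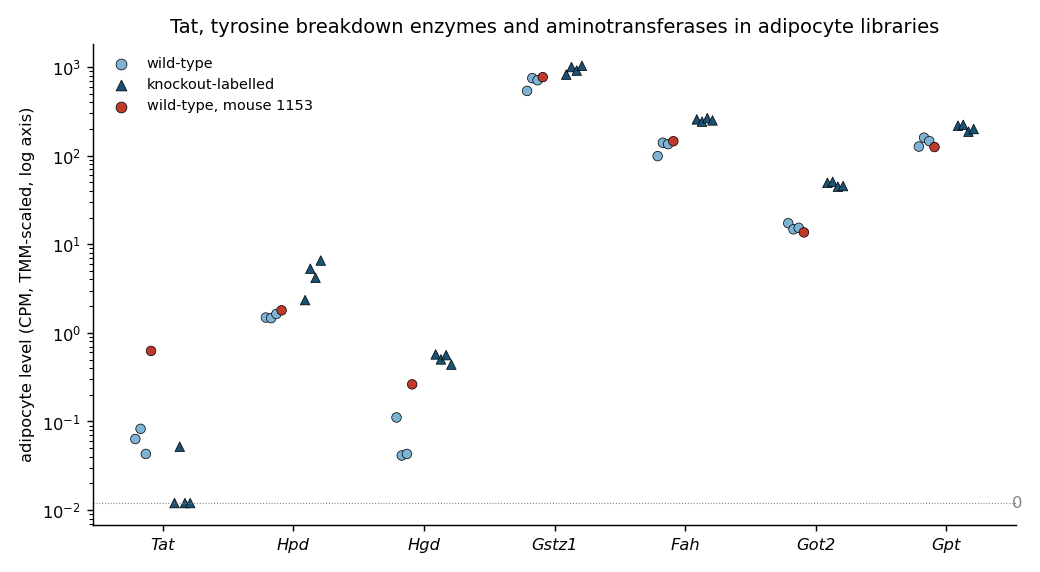
Adipocyte levels of Tat, of the 4 enzymes that follow it in tyrosine breakdown and of the aminotransferases Got2 and Gpt, in CPM on a log axis, with circles for wild-type libraries (red for mouse wt_1153) and triangles for knockout-labelled ones. Points on the dotted line have 0 counts. Tat has 0 counts in 3 knockout-labelled libraries, whereas each knockout-labelled library lies above every wild-type one for the other 6 genes.

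Ahsg lies in a cluster of related genes on chromosome 16. Its neighbour Fetub (chr16:22918334-22939778), which encodes fetuin-B, and Kng2 (chr16:22985854-23029482), which encodes a kininogen, rose in the knockout-labelled adipocyte libraries, while Ahsg had 6, 6, 6 and 165 counts in wild-type and 14, 34, 6 and 8 in knockout-labelled libraries. Kng2 went from 0.292 ± 0.141 to 11.6 ± 0.281 CPM (log2 change 5.26 ± 0.32, edgeR adjusted p = 2.37e-05), and Fetub, named after its value was seen, changed by 1.86 ± 0.37 (edgeR adjusted p = 0.00511). Of 6 tested genes of the cluster and its flanks 3 rose and 0 fell, also under the other scalings. The change was not confined to adipocytes, since Kng2 (0.71 ± 0.09) and Kng1 (0.85 ± 0.11) were also called higher in knockout-labelled livers.

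Transcription factors, the interleukin 6 pathway and glucocorticoid targets were read against the 35.2% of all genes called in adipocytes. Of 12 tested liver transcription factors 0 rose and 2 fell, among them Hlf (-1.79 ± 0.27, edgeR adjusted p = 0.00148), and 6 fell with library totals. Of 11 genes of the interleukin 6 and STAT3 pathway, which drives fibrinogen in liver, 1 rose and 3 fell. The receptor gene Il6ra rose (0.92 ± 0.19) and the leukaemia inhibitory factor receptor gene Lifr fell (-0.74 ± 0.14), and 1 fell without mouse wt_1138, wt_1153, ko_1139 or ko_1152. Of 9 tested glucocorticoid targets, the class of Tat, 2 rose and 2 fell, with Pck1, the gluconeogenic carboxykinase, at 0.74 ± 0.15 and the kinase gene Sgk1 at -0.52 ± 0.12 (1 rose and 3 fell with library totals, and 1 rose and 1 fell without mouse wt_1135, wt_1138, ko_1139, ko_1151 or ko_1152).

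Markers of other cells of fat moved with genotype in the same libraries. Of 9 tested endothelial markers 8 fell, of 10 fibroblast and progenitor markers 8, and of 8 mural cell markers 8, with none higher. The summed endothelial level was 536 to 1534 CPM in wild-type and 153 to 345 CPM in knockout-labelled libraries, that of fibroblasts 1275 to 1362 against 574 to 1065 CPM, and that of mural cells 220 to 327 against 88.1 to 143 CPM. Emcn, an endothelial sialomucin, changed by -1.95 ± 0.32, Lum, a matrix proteoglycan, by -1.47 ± 0.20, and Acta2, smooth muscle actin, by -1.59 ± 0.35. Without each mouse in turn, 4 to 10 fibroblast and 4 to 8 mural markers fell. Of 12 adipocyte markers 2 rose, among them resistin (Retn, 1.27 ± 0.14), and 1 rose and 1 fell with library totals. None of 7 tested macrophage markers was called (Lyz2 -0.51 ± 0.39), although 5 fell without mouse ko_1137. Of the sparse lists, stellate cells had 1 of 3 lower (Ngfr, -2.20 ± 0.46), bile duct cells 1 of 2 higher (Sox9, 0.75 ± 0.22; 0 higher and 1 lower with library totals, and the Sox9 call lost without mouse ko_1151 or ko_1152), red cells 1 of 1 lower (Alas2, -1.04 ± 0.34, lost without mouse wt_1135, wt_1136, ko_1139, ko_1151 or ko_1152) and skeletal muscle 1 of 4 lower (Acta1, -1.73 ± 0.31). No epithelial marker could be tested. The part of these cells in the fall of Alb or the rise of Fga and Hpx was not tested.

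In liver none of the 10 genes differed between the genotypes by the test. There 0.0226% of 13288 genes were called, namely Kng1, Kng2 and Zfp949, all higher, and 1146 genes had an unadjusted p below 0.05. Of the 10 genes 0 were called by edgeR and 0 by DESeq2, which called 55 genes higher and 47 lower. Alb stood at 78811, 104082, 100490 and 89973 CPM in wild-type and 80627, 109096, 90310 and 93435 CPM in knockout-labelled livers, a log2 difference of 0.01 ± 0.16. Fabp1 had the smallest p of the 10. Its level was 5569, 5471, 4854 and 9316 CPM in wild-type and 8602, 7959, 9437 and 8275 CPM in knockout-labelled livers, so that mouse wt_1153 alone among the wild-type mice lay within the other group. Its log2 difference was 0.45 ± 0.19 (edgeR adjusted p = 0.554), and 0.70 without mouse wt_1153 (edgeR adjusted p = 0.159). Within the mice of 76 days it was 0.67 (edgeR adjusted p = 0.637). Over all livers Ttr ran from 8369 to 11121 CPM, Hpx from 3617 to 6879, Apoa2 from 7669 to 12970 and Ahsg from 12269 to 15425 CPM. Their log2 differences were -0.08 ± 0.13, -0.13 ± 0.19, 0.03 ± 0.17 and 0.00 ± 0.12. Those of Fga, Fgb and Fgg were 0.12 ± 0.23, -0.00 ± 0.21 and 0.11 ± 0.21, and that of Tat was -0.24 ± 0.30. None of the 10 was free of overlap, against 4.67% of all genes. Of the gene lists above, those that hold Kng1 (0.85 ± 0.11, edgeR adjusted p = 0.0469) or Kng2 (0.71 ± 0.09, edgeR adjusted p = 0.04003) had called members in liver and the others had 0. Cd36, a fatty acid uptake gene, came nearest among the rest (-1.29 ± 0.24, edgeR adjusted p = 0.251).

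Individual livers stood apart within their genotype. Tat was listed at 1388 CPM in mouse wt_1135 and 1568 CPM in mouse ko_1137, and between 2863 and 3779 CPM in the other 6 livers. Fga was listed at 5315, 7927, 4103 and 4883 CPM in wild-type and 5641, 4655, 5048 and 8662 CPM in knockout-labelled livers, highest in mice wt_1136 and ko_1152, and Fgb and Fgg were highest in the same 2 mice. Over the 8 livers the log2 levels of the chains moved together (Pearson r = 0.978 to 0.988). Apoa2 ran against them (r = -0.756 to -0.715), less so without mice wt_1136 and wt_1138 (-0.446 to -0.331). As a description of 8 livers that share their depth and scaling, the genes whose log2 level was most like that of Fgb were Fgg (r = 0.986, Spearman rho 0.976, r = 0.949 without mice wt_1136 and ko_1152), Fga (0.978, 0.905 and 0.888) and St5 (0.970, 1 and 0.951), among 11697 genes. Most like Tat was Tsc22d3, which encodes the glucocorticoid-induced leucine zipper (r = 0.980, rho 0.905), then Birc5 (0.945 and 0.905) and D930048N14Rik (0.940 and 0.619). Without mice wt_1135 and ko_1137 those r fell to 0.777, 0.744 and 0.385, so the likeness rests in part on these 2 livers.

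**Figure D5:**
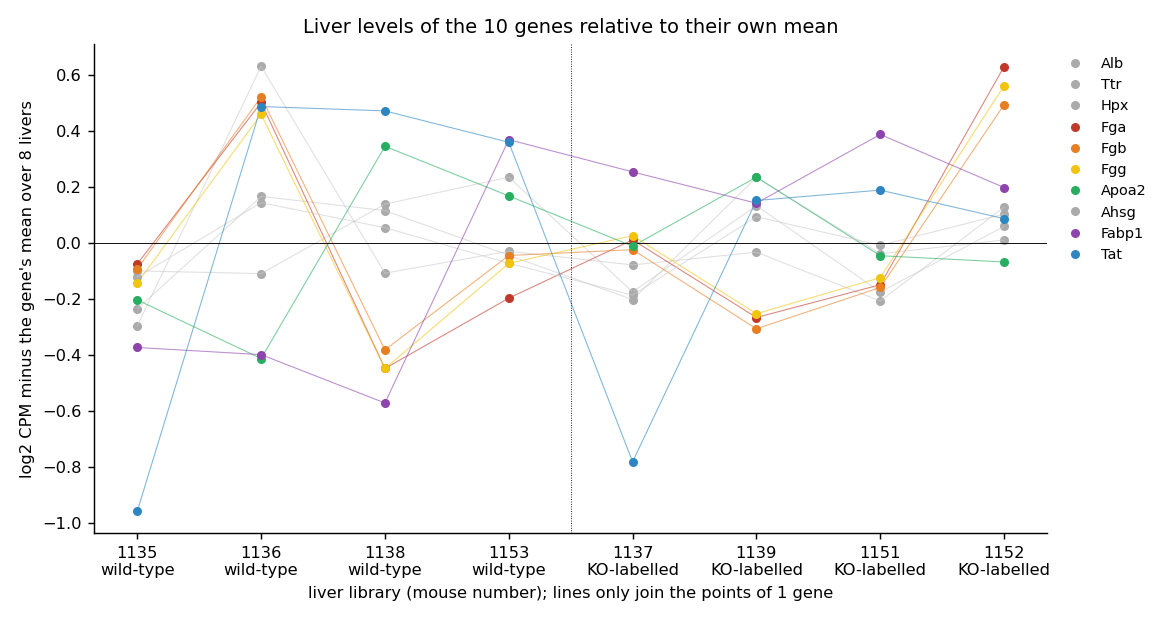
Log2 CPM of each of the 10 genes in each liver library minus that gene's mean over the 8 livers, with wild-type mice left and knockout-labelled mice right of the dotted line, and lines that only join points of 1 gene. Fga, Fgb and Fgg lie together and peak in mice wt_1136 and ko_1152, while Tat is lowest in mice wt_1135 and ko_1137.

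The genotype difference in adipocytes was set against that in liver in a fit of all 16 libraries. There 19.1% of 14898 genes were called, 10.4% higher and 8.73% lower in adipocytes than in liver. Alb differed by -1.86 ± 0.48 (edgeR adjusted p = 0.0125), Fga by 2.39 ± 0.53 (0.00534 by the same test) and Hpx by 1.51 ± 0.43 (0.0233). The other 7 genes were not called, with Fgg nearest (-2.26 ± 0.78, edgeR adjusted p = 0.0515). All of these but Apoa2 passed the filter there through their liver counts only. With the mouse as a replicate block, which the shared animals call for, Alb lost its call (-1.80, edgeR adjusted p = 0.0756), while Fga (2.51) and Hpx (1.51) kept theirs. Alb also lost it without mouse ko_1151 or ko_1152, and Hpx without mouse ko_1139, ko_1151 or ko_1152 (edgeR adjusted p = 0.0513 to 0.0974).

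Over the 8 adipocyte libraries, which share the genotype difference, the genes most like Alb in log2 level were Eva1c (r = 0.983, rho 0.905), Ch25h (0.974 and 0.929) and Pfkfb4 (0.968 and 0.905), among 12144 genes. Those most like Fga were Kpna3 (0.983 and 0.929), Arl5a (0.981 and 0.976) and Brd7 (0.980 and 0.857). The r stayed above 0.93 for these 6 genes without the 2 libraries farthest from the median, which were wild-type in each case. With each group's mean taken out, r was 0.817 to 0.904 for the genes like Alb and 0.887 to 0.906 for those like Fga. Since Alb and Fga themselves differ between the groups, such likeness describes these libraries only.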

How the data were processed

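Poly-A RNA of 16 libraries from 8 mice was sequenced by the authors. The tools were featureCounts 1.5.0, STAR 2.5.2b and bcl2fastq 2.17 and the build mm10, as the submitters' processing notes record. Not given in the sources used here: annotation, strand setting and handling of multimapped reads. The deposited values are raw counts per gene, 28560887 to 53716669 per library. Of the counts from 1 to 20, 77.9% were even, so halved counts were tried, an alternative chosen after seeing the data, as were the recounts of each gene list under other scalings and without each mouse.

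Counts were tested with edgeR 4.0.16 in R 4.3.3 (filterByExpr, TMM, quasi-likelihood test, two-sided, Benjamini-Hochberg threshold 0.05), each tissue and each genotype on its own, and all 16 libraries for the difference between tissues. The filter kept 4 of the 10 genes in adipocytes and all in liver. Scripts were tested on simulated data. Printed CPM are TMM-scaled over all 16 libraries, and exon lengths and positions come from a GENCODE annotation of GRCm38. Alternatives were library totals, RLE and upper-quartile scaling, DESeq2 1.42.0, limma 3.58.1 voom, other filters, age, a mouse block and leaving out each mouse. The adipocyte and liver libraries of a mouse share the animal per the labels, and their deviations correlated at r = -0.0591 to 0.0918.

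The genes and lists were chosen with earlier results of these data known. Named beside the 10 genes and Trib1 are, from each list, the called gene with the smallest p in each direction (if none, the smallest p), and the 3 genes most correlated with Alb, Fga, Fgb and Tat. Outside this rule Cyp7a1, Trf, Cyp2e1, Hpd, Hgd, Gstz1, Fah, Gpt, Fetub and Zfp949 were named after their values were seen. Intervals are exact binomial.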

Additional observations from a re-analysis of the deposited data

Results flagged for a closer look

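Of 40 sets of 4 values, 1 for each gene in each group, 11 had a library far from the other 3. A chance rate of about 1 in 20 would need independent, normally spread values. The sets share their libraries and some hold counts near 0, so that rate does not apply here. In the adipocyte library of mouse wt_1153 the flagged genes were Ttr (1.41 CPM), Fga (1.86 CPM), Ahsg (3.33 CPM), Fabp1 (1.05 CPM) and Tat (0.625 CPM), each above the other wild-type libraries. In that of mouse ko_1139 they were Ttr (0.450 CPM) and Tat (0.0519 CPM, from 3 counts). In liver, Fabp1 was high in mouse wt_1153 (9316 CPM), Apoa2 high in mouse ko_1139 (12017 CPM), and Tat low in mouse wt_1135 (1388 CPM) and mouse ko_1137 (1568 CPM). The genotype difference was not the same in adipocytes and liver for Alb (-1.86), Hpx (1.51) and Fga (2.39 on the log2 scale), by the test of the difference itself without a block. With the mouse as replicate block Alb was no longer called (-1.80, edgeR adjusted p = 0.0756).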

How the results depend on the processing

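In adipocytes Alb and Fga kept direction and call under every alternative run. Genes called higher and lower numbered 2487 and 2362, but 1293 and 3899 with library totals, 832 and 898 in the mice of 76 days, and 1832 to 2556 and 1721 to 2740 without each mouse. Of the 10 genes, 1 was lower, but 3 with DESeq2 and 2 in the fit of all 16 libraries. The genes added there, Fgg and with DESeq2 also Tat, did not pass the filter in adipocytes. Of the 10 genes, 2 were higher, but 1 in the mice of 76 days and 1 to 2 without each mouse. Apoa2 turned to 0.39 with voom, 0.91 in the mice of 76 days, and ran from -0.58 to 0.93 without each mouse. In liver, genes called higher numbered 3, but 1 with upper-quartile scaling, 55 with DESeq2, 0 in the mice of 76 days and 1 to 3 without each mouse; those lower numbered 0, but 47 with DESeq2, 1 without a filter, with age as covariate or with all 16 libraries, and 0 to 1 without each mouse. Liver differences near 0 changed sign. Fgb was at 0.0209 with library totals, 0.000469 with voom, 0.00204 with a mean of 1 CPM and 0.000300 with halved counts; without a filter Alb was at -0.00248 and Ahsg at -0.00312; in the mice of 76 days Ttr was at 0.0308, Fga at -0.139, Fgg at -0.0849 and Ahsg at -0.0445. Without each mouse Alb ran from -0.0841 to 0.0606, Hpx from -0.244 to 0.102, Fga from -0.115 to 0.336, Fgb from -0.193 to 0.203, Fgg from -0.0945 to 0.304, Apoa2 from -0.084 to 0.174 and Ahsg from -0.0387 to 0.0542. Between wild-type tissues, genes higher in liver fell from 5337 to 3064 with library totals. For the difference between tissues, genes higher and lower numbered 1544 and 1301, but 683 and 2242 with library totals, 347 and 319 in the mice of 76 days, and 900 to 1569 and 749 to 1600 without each mouse. There 1 of the 10 genes was lower, but 2 with library totals, upper-quartile scaling or a mean of 1 CPM, 3 with DESeq2, 0 in the mice of 76 days and 0 to 3 without each mouse; 2 were higher, but 1 in the mice of 76 days and 1 to 2 without each mouse. With the mouse as replicate block 0 were lower (Alb -1.80) and Apoa2 turned to 0.0450; the block changed no other call of the 10 genes. Apoa2 was at 0.35 with voom and 0.77 in the mice of 76 days, Ahsg at 0.0166 and 1.96, and Ttr at 0.95 in the latter; without each mouse Ttr from -3.66 to 0.25, Apoa2 from -0.59 to 0.89, Ahsg from -2.12 to 1.46. With library totals Alb stood at 0.109% of liver in wild-type and 0.0259% in knockout-labelled mice (0.0720% and 0.0199% with TMM), and Hpx at 0.0340% in wild-type mice (0.0224%). The cause of these changes was not tested, and fewer samples enter the mice of 76 days. Adipocyte counts of 0 to 165 per library limit the values of the 7 genes other than Alb, Fga and Hpx. Low counts also limit Hpx, with 26 to 165 per adipocyte library, and Fga, with 22 to 92 in wild-type ones.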
